A study of Mus musculus with 20 samples.

Results

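Follicular helper T cells without the mark of T-bet expression were compared with non-follicular T cells that carry it, in 4 RNA libraries of mouse CD4 T cells, out of 12 RNA libraries and 20 libraries in all. The members were chosen by their sample labels: 2 libraries of CXCR5-high PD1-high Tomato-negative cells (Tfh Tomato-) and 2 of CXCR5-low PD1-low Tomato-positive cells (non-Tfh Tomato+). The 2 libraries of CXCR5-high PD1-high Tomato-positive cells (Tfh Tomato+) were then placed along the difference, beside the 2 of CXCR5-low PD1-low Tomato-negative cells (non-Tfh Tomato-). All 4 groups came from T-bet-Cre mice with the Rosa26-loxP-STOP-loxP-tdTomato allele on a C57BL/6 background, in which T-bet-driven Cre switches tdTomato on for good. The mice were immunized with AS15 in CFA, complete Freund's adjuvant, and CD4 T cells of the draining lymph node that bound the AS15 tetramer were sorted on day 16. The labels name no reporter of current T-bet expression for these cells, so the Tomato mark can be present or past expression. They give no age, and do not say whether animals were pooled.

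T-bet, encoded by Tbx21, is the transcription factor that directs T helper 1 (Th1) cells, which make interferon gamma, carry receptors for inflamed tissue and leave the lymph node. Follicular helper T cells (Tfh) are directed by Bcl6, enter B cell follicles through CXCR5 and help germinal centre B cells through contact receptors and cytokines such as interleukin 21 and interleukin 4. T-bet and Bcl6 are known to oppose each other, yet both can be active early in a response. A permanent mark therefore serves to separate Tfh cells with present or past T-bet expression from those without it. How completely it marks such cells was not tested.

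The 8 lymph node libraries held 13169625 to 20225695 reads over genes and reads for 11155 to 11806 genes. Nothing in the labels says that the 2 libraries of a group came from separate animals, so p-values measure the spread between these libraries, which may be technical. That spread was wide, with a common biological coefficient of variation of 0.908. Levels are the deposited RPKM, reads per kilobase of transcript scaled to the library. Summed markers of CD4 T cell identity, 13 genes, lay between 4494 and 5445 RPKM in every library, and none of them passed the test between the end groups. In bulk RNA, fewer cells with a transcript and less transcript per cell cannot be told apart. Tbx21 followed the Tomato gate, with 12.8 and 12.9 RPKM in Tfh Tomato-, 106 and 52.95 in Tfh Tomato+, 10.4 and 10.5 in non-Tfh Tomato- and 183 and 163 in non-Tfh Tomato+, so its direction is no finding. Cxcr5 and Pdcd1 encode the gating proteins and are no independent result either.

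Between the end groups, 135 of 11746 tested genes differed, which is 1.15% (edgeR quasi-likelihood test, Benjamini-Hochberg adjusted p below 0.05). Of these, 49 (0.417%) were higher in Tfh Tomato- cells and 86 (0.732%) in non-Tfh Tomato+ cells. The first group held the Tfh regulators Bcl6, Ascl2 and Tox, but also genes of myeloid cells such as Il1b, Lyz2 and Plbd1. The second held the Th1 genes Ifng, Il18rap and Fasl. Log2 differences are Tfh Tomato- minus non-Tfh Tomato+, so a positive value is a higher level in Tfh Tomato- cells. Their median was 2.85 over the 49 genes and -2.56 over the 86, and 0.02 over all genes tested. The 2 libraries of one end lay apart from those of the other in all 135 genes, and in 5089 of all genes tested (43.3%). For the 135 called genes that separation is partly fixed by the test, which used the same libraries. The count was 82 without Tfh Tomato- replicate 1, 67 without non-Tfh Tomato+ replicate 1 and 78 without replicate 2 of that group. It was 81, with 21 higher in Tfh Tomato- cells and 60 in non-Tfh Tomato+ cells, without the replicate 2 libraries of both Tomato- groups.

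**Figure D1:**
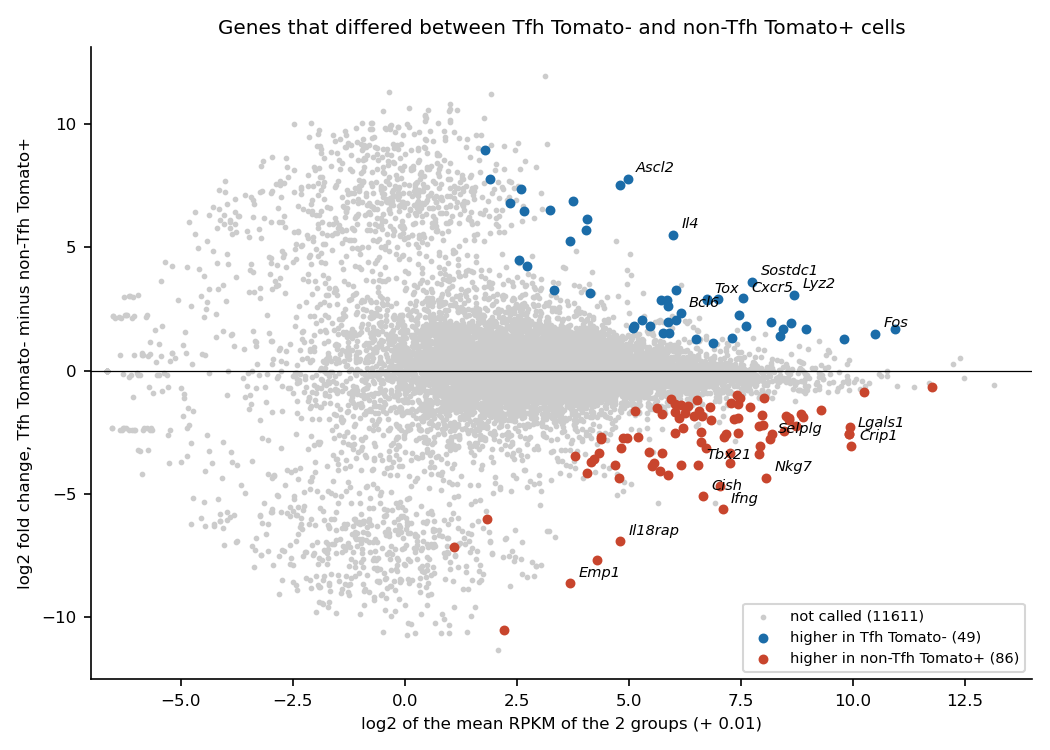
Log2 fold change between Tfh Tomato- and non-Tfh Tomato+ cells (vertical axis) against the log2 of the mean RPKM of the 2 groups (horizontal axis) for 11746 genes. Blue points are the 49 genes higher in Tfh Tomato- cells, red points the 86 higher in non-Tfh Tomato+ cells and grey points the 11611 that did not pass; the wide grey clouds at low levels are genes read in few libraries.

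Of 15 tested genes that direct the Tfh program 6 were higher in Tfh Tomato- cells, none was lower, and the Tfh Tomato+ libraries lay nearer to Tfh Tomato- in all 6. By mean position they did so in 44 of all 49 genes called in this direction. The 6 were Bcl6, Ascl2, Tox, Tox2, Tcf7 and Nfatc1, with a median log2 difference of 1.1 over the list. Bcl6, the repressor that defines Tfh cells, measured 139 and 101 RPKM in Tfh Tomato-, 110.3 and 95.2 in Tfh Tomato+ and 23.7 and 21.9 in non-Tfh Tomato+. The Tfh Tomato+ range overlapped that of Tfh Tomato-, and the end groups differed 4.99-fold, a log2 difference of 2.32 ± 0.28 (SE; adjusted p = 0.00663). Ascl2, a basic helix-loop-helix factor known to turn on Cxcr5, measured 80.8 and 44.7 RPKM in Tfh Tomato-, 38.5 and 51.9 in Tfh Tomato+, 0.332 and 0.686 in non-Tfh Tomato- and 0.1599 and 0.37 in non-Tfh Tomato+. All 4 Tfh libraries were high and all 4 non-Tfh libraries were near 0, whatever the Tomato mark, with a log2 difference of 7.78 ± 0.79 (SE; adjusted p = 0.00288) between the ends.

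Tox, a high-mobility-group factor that supports Tfh differentiation, measured 207 and 171 RPKM in Tfh Tomato-, 103 and 128 in Tfh Tomato+ and 29.5 and 18.8 in non-Tfh Tomato+. Here the Tfh Tomato+ libraries lay below both Tfh Tomato- libraries and above both non-Tfh Tomato+ libraries, and the ends differed by 2.898 ± 0.27 (SE; adjusted p = 0.00195). Its relative Tox2 measured 178 and 277 RPKM in Tfh Tomato-, 136 and 210.5 in Tfh Tomato+ and 16.03 and 40.5 in non-Tfh Tomato+. Its log2 difference was 2.91 ± 0.47 (SE; adjusted p = 0.0281). Tcf7, which encodes the factor TCF1 of memory and Tfh cells, measured 517 and 458 RPKM in Tfh Tomato-, 362 and 376 in Tfh Tomato+, 310 and 361 in non-Tfh Tomato- and 149 and 196 in non-Tfh Tomato+. It differed by 1.42 ± 0.20 (SE; adjusted p = 0.0139). Both Tfh Tomato+ values of Tcf7 lay between the ends, whereas those of Tox2 overlapped Tfh Tomato-. Nfatc1, a factor activated by calcium signalling, differed by 1.101 ± 0.16 (SE; adjusted p = 0.016). The Tcf7 call was lost without non-Tfh Tomato+ replicate 1 (adjusted p = 0.0872), the Tox2 call without that library or Tfh Tomato- replicate 2, and the Nfatc1 call without any 1 of the 4 end libraries. Over all alternatives their adjusted p reached 0.144 for Tox2 and 0.149 for Nfatc1. Batf, another member of the list, was at 497 and 246 RPKM in Tfh Tomato- and 387 and 252 in non-Tfh Tomato+, a log2 difference of 0.15 ± 0.35 (SE; adjusted p = 0.963).

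**Figure D2:**
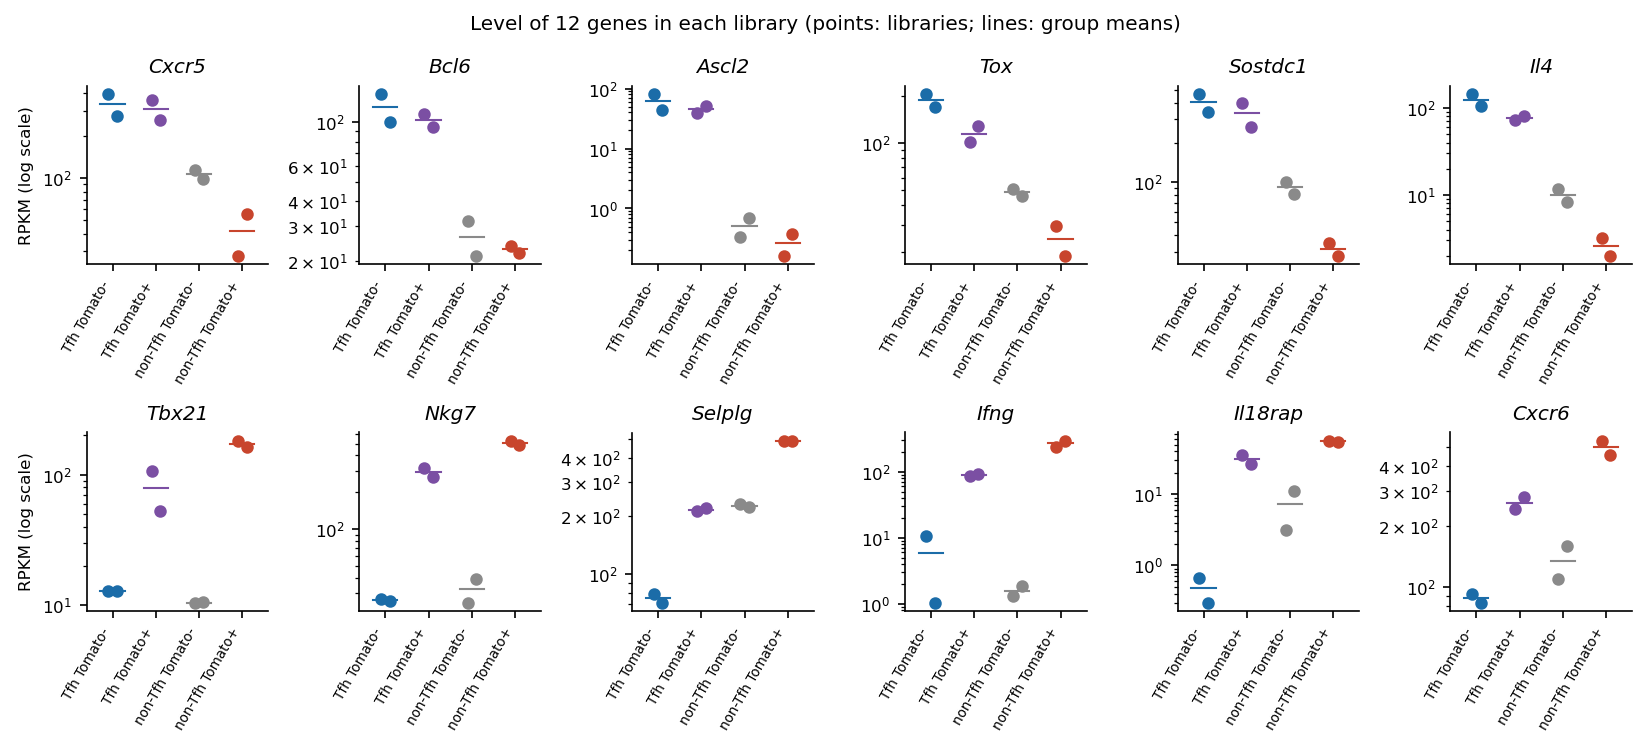
RPKM on a log scale of 6 genes higher in Tfh Tomato- cells (top row) and 6 higher in non-Tfh Tomato+ cells (bottom row) in each of the 8 lymph node libraries; points are libraries, lines the means of 2. Tfh Tomato+ cells lie near Tfh Tomato- cells in the top row, below both of their libraries for Tox and Il4, and between the ends in the bottom row.

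Among 20 tested genes of the Tfh surface and of B cell help, 6 were higher in Tfh Tomato- cells and 1 in non-Tfh Tomato+ cells, with a median log2 difference of 1.16. The 6 include Cxcr5 and Pdcd1, which encode the gating proteins. Cxcr5, the follicle-homing receptor, measured 394 and 277 RPKM in Tfh Tomato-, 360.2 and 258 in Tfh Tomato+ and 27.8 and 55.7 in non-Tfh Tomato+. Pdcd1, the gene of the gated inhibitory receptor PD1, measured 715 and 547 RPKM in Tfh Tomato-, 656 and 542 in Tfh Tomato+ and 133 and 183 in non-Tfh Tomato+. In both, the 2 Tfh groups overlapped. The ends differed by 2.92 ± 0.38 (SE; adjusted p = 0.00941) for Cxcr5 and by 1.92 ± 0.28 (SE; adjusted p = 0.016) for Pdcd1, and the latter did not pass without non-Tfh Tomato+ replicate 1 (adjusted p = 0.0921). Il4, the cytokine that drives class switching in B cells, measured 144 and 104 RPKM in Tfh Tomato-, 71.8 and 81.2 in Tfh Tomato+, 11.6 and 8.28 in non-Tfh Tomato- and 3.23 and 1.98 in non-Tfh Tomato+. Both Tfh groups were high, the Tomato+ libraries below the Tomato- libraries, and the ends differed 45.4-fold. The end groups differed by 5.504 ± 0.67 (SE; adjusted p = 0.00709). That call was lost without Tfh Tomato- replicate 1 (adjusted p = 0.0539) or non-Tfh Tomato+ replicate 2 (0.0561).

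Sh2d1a, which encodes the adaptor SAP needed for lasting contact with B cells, measured 328 and 261 RPKM in Tfh Tomato-, 270 and 194 in Tfh Tomato+ and 63.1 and 53.6 in non-Tfh Tomato+. This was a log2 difference of 2.26 ± 0.28 (SE; adjusted p = 0.00813). The call of Sh2d1a was lost without non-Tfh Tomato+ replicate 2 (adjusted p = 0.062). Il6ra, the receptor chain for interleukin 6, a cytokine that promotes Tfh cells, measured 105 and 110.2 RPKM in Tfh Tomato-, 55.9 and 59.95 in Tfh Tomato+, 85.3 and 65.5 in non-Tfh Tomato- and 27.8 and 21.98 in non-Tfh Tomato+. Tfh Tomato+ cells held about the middle of that difference of 2.04 ± 0.22 (SE; adjusted p = 0.00425), at positions 0.537 and 0.573 on a scale where 0 is non-Tfh Tomato+ and 1 is Tfh Tomato-. Both non-Tfh Tomato- libraries were above them. Il6st, its signalling partner, differed by 1.71 ± 0.26 (SE; adjusted p = 0.0223). The Il6st call was lost without Tfh Tomato- replicate 1 or either non-Tfh Tomato+ library, and its adjusted p reached 0.143 over all alternatives. Slamf1, a receptor of the SLAM family, went the other way, with 23.6 and 30.3 RPKM in Tfh Tomato-, 32.02 and 29.9 in Tfh Tomato+ and 75.2 and 69.6 in non-Tfh Tomato+, a difference of -1.504 ± 0.27 (SE; adjusted p = 0.0473). That call was lost without any 1 of 7 of the 8 libraries, non-Tfh Tomato- replicate 1 being the other, and its adjusted p reached 0.275 over all alternatives. Il21, the main Tfh cytokine, measured 50.98 and 23.7 RPKM in Tfh Tomato-, 58.97 and 33.3 in Tfh Tomato+ and 3.09 and 9.19 in non-Tfh Tomato+ and did not pass (log2 difference 2.52 ± 0.63, SE; adjusted p = 0.139). Neither did Icos, a contact receptor for help (log2 difference -0.77 ± 0.18, SE; adjusted p = 0.105), or Cd40lg, a contact ligand for help (log2 difference 0.29 ± 0.24, SE; adjusted p = 0.746).

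Of 12 tested genes known in Tfh cells but less studied, 3 were higher in Tfh Tomato- cells and none was lower, at a list median of 1.42. Sostdc1, a secreted antagonist of BMP and Wnt signals, measured 464 and 339 RPKM in Tfh Tomato-, 401 and 264 in Tfh Tomato+, 101 and 82.3 in non-Tfh Tomato- and 35.04 and 27.7 in non-Tfh Tomato+. The Tfh groups overlapped and stood above both non-Tfh groups, and the ends differed 12.2-fold. Between the ends it differed by 3.61 ± 0.30 (SE; adjusted p = 0.0017). Fam43a measured 93.8 and 147 RPKM in Tfh Tomato-, 112 and 98.4 in Tfh Tomato+ and 9.6 and 13.9 in non-Tfh Tomato+. That gave a difference of 3.27 ± 0.35 (SE; adjusted p = 0.00378). The 2 Tfh groups overlapped here as well. Angptl2, a secreted angiopoietin-like protein, measured 99.1 and 89.8 RPKM in Tfh Tomato-, 113 and 114 in Tfh Tomato+ and 16.2 and 28.9 in non-Tfh Tomato+, so that Tfh Tomato+ cells lay past Tfh Tomato-. Its difference of 1.98 ± 0.36 (SE; adjusted p = 0.0492) was lost without Tfh Tomato- replicate 1 or 2, Tfh Tomato+ replicate 1 or 2 or non-Tfh Tomato+ replicate 1, with adjusted p from 0.0598 to 0.187. Other large differences in this direction included Cxxc5, a zinc finger protein of the CXXC family, with 29.4 and 35.3 RPKM in Tfh Tomato-, 31.3 and 28.8 in Tfh Tomato+, 0.217 and 0.209 in non-Tfh Tomato- and 0.208 and 0.952 in non-Tfh Tomato+. The log2 difference was 5.696 ± 0.83 (SE; adjusted p = 0.0169). As with Ascl2, both Tfh groups were high and both non-Tfh groups near 0. Without the replicate 2 libraries of both Tomato- groups the Cxxc5 call was lost (adjusted p = 0.0818). Tmem38b, a cation channel of the endoplasmic reticulum, measured 5.696 and 14.5 RPKM in Tfh Tomato-, 14.1 and 9.05 in Tfh Tomato+, 6.91 and 12.6 in non-Tfh Tomato- and 0.0901 and 0.0782 in non-Tfh Tomato+. The ends lay apart by 6.802 ± 0.98 (SE; adjusted p = 0.016). Tgm2, a transglutaminase, measured 16.1 and 9.03 RPKM in Tfh Tomato-, 10.3 and 3.83 in Tfh Tomato+, 6.44 and 7.36 in non-Tfh Tomato- and 0.0727 and 0.189 in non-Tfh Tomato+. Its log2 difference was 6.48 ± 1.01 (SE; adjusted p = 0.0226). In both genes non-Tfh Tomato+ cells alone were near 0. The Tmem38b call was lost without Tfh Tomato- replicate 2 or either non-Tfh Tomato+ library, and the Tgm2 call without Tfh Tomato- replicate 1 or either non-Tfh Tomato+ library, with adjusted p over all alternatives of up to 0.113 and 0.137.

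Of 18 tested genes of T cell receptor activation, Fos and Dusp1 were higher in Tfh Tomato- cells and Dusp2 in non-Tfh Tomato+ cells. Fos, an AP-1 subunit of the immediate early response, measured 2265 and 2090 RPKM in Tfh Tomato-, 1895 and 1612 in Tfh Tomato+ and 730.1 and 734 in non-Tfh Tomato+. It differed by 1.495 ± 0.14 (SE; adjusted p = 0.00195). Dusp1, a phosphatase that ends MAP kinase signals, differed by 1.68 ± 0.21 (SE; adjusted p = 0.00813) and its call was lost without non-Tfh Tomato+ replicate 1 (adjusted p = 0.0547). Dusp2, a nuclear phosphatase of the same family, measured 99.9 and 129.7 RPKM in Tfh Tomato-, 169 and 248 in Tfh Tomato+ and 483 and 692 in non-Tfh Tomato+. The end groups differed by -2.44 ± 0.28 (SE; adjusted p = 0.00563). In Fos and Dusp2 the Tfh Tomato+ libraries lay between the ends. Rgs10, a brake on G protein signalling, measured 484 and 439.5 RPKM in Tfh Tomato-, 430.4 and 340.4 in Tfh Tomato+ and 113 and 112 in non-Tfh Tomato+. This was a log2 difference of 1.96 ± 0.21 (SE; adjusted p = 0.00422). The smoothelin gene Smtn measured 104 and 100.4 RPKM in Tfh Tomato-, 72.6 and 63.4 in Tfh Tomato+ and 14.3 and 16.9 in non-Tfh Tomato+. Between the ends it differed by 2.63 ± 0.23 (SE; adjusted p = 0.00194). Fos, Rgs10 and Smtn each ordered the 3 groups the same way, with Tfh Tomato+ libraries below those of Tfh Tomato- and above those of non-Tfh Tomato+.

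Of 14 tested regulators of the Th1 program 5 were higher in non-Tfh Tomato+ cells, none was lower, and the Tfh Tomato+ libraries held intermediate levels of all 5. The list had a median log2 difference of -2.07. The 5 genes were Tbx21, which follows the Tomato gate and is no finding, and Il18rap, Ifngr1, Bhlhe40 and Id2. Tbx21 in Tfh Tomato+ cells, at 106 and 52.95 RPKM, was above both Tfh Tomato- libraries and below both non-Tfh Tomato+ libraries, whose difference was -3.83 ± 0.36 (SE; adjusted p = 0.00195). Il18rap, a chain of the receptor for interleukin 18, which boosts interferon gamma, measured 0.662 and 0.298 RPKM in Tfh Tomato-, 35.4 and 27.1 in Tfh Tomato+, 3.14 and 11.3 in non-Tfh Tomato- and 56.8 and 53.9 in non-Tfh Tomato+. Tfh Tomato- cells were almost without it, Tfh Tomato+ cells were near the high end, and the ends differed by -6.91 ± 0.81 (SE; adjusted p = 0.00563). Ifngr1, the ligand-binding chain of the interferon gamma receptor, measured 52.6 and 57.98 RPKM in Tfh Tomato-, 186 and 191 in Tfh Tomato+ and 479.7 and 391 in non-Tfh Tomato+. That gave a difference of -3.05 ± 0.18 (SE; adjusted p = 0.000701). Bhlhe40, a cofactor of cytokine production, measured 226 and 205 RPKM in Tfh Tomato-, 420.3 and 419 in Tfh Tomato+ and 768 and 627 in non-Tfh Tomato+. The log2 difference was -1.77 ± 0.16 (SE; adjusted p = 0.00195). Ifngr1 and Bhlhe40 kept the same order of groups as Tbx21. Id2, an inhibitor of E proteins, measured 91.6 and 98.5 RPKM in Tfh Tomato-, 235 and 218 in Tfh Tomato+ and 432 and 396 in non-Tfh Tomato+. The ends lay apart by -2.2 ± 0.20 (SE; adjusted p = 0.00195). In all 5 genes the 3 groups did not overlap. The same order held in 79 of all 86 genes higher in non-Tfh Tomato+ cells (91.9%), so it is not particular to these regulators. Over all genes tested Tfh Tomato+ lay between the ends in 5.49%. Il12rb2, the inducible chain of the interleukin 12 receptor, measured 0.105 and 5.66 RPKM in Tfh Tomato- and 25.6 and 26.3 in non-Tfh Tomato+ and did not pass. Its log2 difference was -3.26 ± 1.36 (SE; adjusted p = 0.423).

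Of 10 tested Th1 cytokine and chemokine genes 3 were higher in non-Tfh Tomato+ cells, at a list median of -2.51. Ifng, the gene of interferon gamma, measured 10.5 and 1.03 RPKM in Tfh Tomato-, 87.2 and 91.3 in Tfh Tomato+, 1.296 and 1.83 in non-Tfh Tomato- and 240.3 and 296 in non-Tfh Tomato+. Tfh Tomato+ cells stood above every Tomato- library and below both non-Tfh Tomato+ libraries. The ends differed by -5.61 ± 0.94 (SE; adjusted p = 0.0335), and this call was lost without non-Tfh Tomato+ replicate 1 (adjusted p = 0.0607) or replicate 2 (0.0719). Fasl, the death ligand, measured 12.5 and 7.17 RPKM in Tfh Tomato-, 97.1 and 44.9 in Tfh Tomato+ and 155 and 110.5 in non-Tfh Tomato+. It differed by -3.83 ± 0.47 (SE; adjusted p = 0.00813). It did not pass without the replicate 2 libraries of both Tomato- groups (adjusted p = 0.0818). Tnf, which encodes tumour necrosis factor, measured 122 and 108 RPKM in Tfh Tomato-, 170.2 and 161 in Tfh Tomato+ and 263 and 344 in non-Tfh Tomato+ (log2 difference -1.48 ± 0.24, SE; adjusted p = 0.0323), and its call was lost without any 1 of the 4 end libraries (adjusted p up to 0.216). Ccl5, a chemokine of effector cells, measured 37.1 and 47.5 RPKM in Tfh Tomato-, 186 and 152 in Tfh Tomato+ and 292 and 284 in non-Tfh Tomato+ and did not pass. The end groups differed by -2.85 ± 0.90 (SE; adjusted p = 0.253).

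Among 10 tested genes of cytotoxic granules, Nkg7 and Serpinb9 were higher in non-Tfh Tomato+ cells, at a list median of -4.0. Nkg7, a granule membrane protein needed for degranulation, measured 26.99 and 25.96 RPKM in Tfh Tomato-, 317 and 269 in Tfh Tomato+, 25.1 and 39.4 in non-Tfh Tomato- and 529 and 486 in non-Tfh Tomato+. Both Tomato+ groups were high and both Tomato- groups low, with Tfh Tomato+ below non-Tfh Tomato+, and the ends differed 20.2-fold. This was a log2 difference of -4.34 ± 0.31 (SE; adjusted p = 0.000908). Serpinb9, an inhibitor of granzyme B, measured 5.695 and 1.41 RPKM in Tfh Tomato-, 27.2 and 36.2 in Tfh Tomato+ and 55.4 and 40.4 in non-Tfh Tomato+ (log2 difference -3.82 ± 0.66, SE; adjusted p = 0.0364), but the call was lost without non-Tfh Tomato+ replicate 1 (adjusted p = 0.123) or replicate 2 (0.0694). Ctsw, a protease of killer cells, measured 7.03 and 4.99 RPKM in Tfh Tomato-, 93.6 and 69.8 in Tfh Tomato+ and 219.9 and 253 in non-Tfh Tomato+ and did not pass. Between the ends it differed by -5.37 ± 1.31 (SE; adjusted p = 0.128). Gzmb, the gene of granzyme B itself, measured 4.35 and 7.54 RPKM in Tfh Tomato-, 0.104 and 7.41 in Tfh Tomato+ and 29.2 and 49.8 in non-Tfh Tomato+ and did not pass either. That gave a difference of -2.82 ± 1.53 (SE; adjusted p = 0.532).

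Nkg7 was also 1 of 3 genes higher in non-Tfh Tomato+ cells, with Cd47 and Cd48, whose promoter window holds the core letters of the T-box motif bound by T-bet, GGTGTGA, or its reverse complement TCACACC. The windows are the 250 bases before the start of each gene in RefSeq, on build GRCm38.p6, which is not the mm9 build of the files. They are shown, on the plus strand, because they are all the matches among these genes, with the matched letters in capitals. The share of genes with a match, 4.48% of the 67 with a window, was near the 3.41% of tested genes. Binding of T-bet was not tested. Nkg7 is at chr7:43436888-43437137, Cd47, the signal that protects cells from phagocytes, at chr16:49855404-49855653 and Cd48, a SLAM family ligand, at chr1:171681742-171681991.
Nkg7: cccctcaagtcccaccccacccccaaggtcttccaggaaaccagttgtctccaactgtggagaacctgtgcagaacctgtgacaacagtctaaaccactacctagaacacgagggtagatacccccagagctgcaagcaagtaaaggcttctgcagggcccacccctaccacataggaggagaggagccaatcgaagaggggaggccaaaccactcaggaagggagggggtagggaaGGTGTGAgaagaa
Cd47: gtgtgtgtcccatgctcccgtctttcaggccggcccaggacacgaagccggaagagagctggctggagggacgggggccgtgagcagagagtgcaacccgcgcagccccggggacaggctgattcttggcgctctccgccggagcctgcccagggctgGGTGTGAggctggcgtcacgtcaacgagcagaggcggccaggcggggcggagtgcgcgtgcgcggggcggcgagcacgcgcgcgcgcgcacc
Cd48: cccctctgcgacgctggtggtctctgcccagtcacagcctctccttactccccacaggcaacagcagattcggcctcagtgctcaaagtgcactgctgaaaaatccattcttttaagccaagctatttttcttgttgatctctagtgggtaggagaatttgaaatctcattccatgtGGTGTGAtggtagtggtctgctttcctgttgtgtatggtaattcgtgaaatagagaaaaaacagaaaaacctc

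Of the 86 genes 67 had a RefSeq window, and 3 of these held a match on either strand, which is 4.48%. The share was 3.41% among 8320 tested genes with a window and 3.84% among all 27025 RefSeq windows. Of the 49 genes higher in Tfh Tomato- cells 34 had a window and none held it. The TCF/LEF letters CTTTGAA (reverse complement TTCAAAG) were in none of the 34 and in 4.48% of the 67, against 4.05% of tested genes, and the E-box CAGCTG was in 17.6% of the 34 and 14.9% of the 67, against 13.8% of tested genes. Cd47 itself measured 75.3 and 64.2 RPKM in Tfh Tomato-, 156 and 146 in Tfh Tomato+ and 249.5 and 268 in non-Tfh Tomato+. The log2 difference was -1.97 ± 0.20 (SE; adjusted p = 0.00304). Cd48 measured 85.2 and 119 RPKM in Tfh Tomato-, 152 and 124 in Tfh Tomato+ and 254 and 236 in non-Tfh Tomato+ (log2 difference -1.34 ± 0.25, SE; adjusted p = 0.0492), a call that was lost without any 1 of the 8 libraries and reached an adjusted p of 0.259 over all alternatives.

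Of 8 tested receptors that lead effector cells into inflamed tissue, 3 were higher in non-Tfh Tomato+ cells and none was lower, with a list median of -2.52. Cxcr6, a receptor of tissue-resident effector cells, measured 92.1 and 83.3 RPKM in Tfh Tomato-, 244 and 281 in Tfh Tomato+, 109.6 and 159 in non-Tfh Tomato- and 536 and 455 in non-Tfh Tomato+. The ends lay apart by -2.57 ± 0.23 (SE; adjusted p = 0.00195). Tfh Tomato+ cells were also above non-Tfh Tomato- cells. Cxcr3, the receptor for interferon-induced chemokines and a T-bet target, measured 26.1 and 35.6 RPKM in Tfh Tomato-, 91.2 and 109.6 in Tfh Tomato+ and 193 and 138 in non-Tfh Tomato+. Its log2 difference was -2.498 ± 0.28 (SE; adjusted p = 0.00513). Ccr2, a receptor for monocyte chemoattractants, measured 3.91 and 9.67 RPKM in Tfh Tomato-, 42.9 and 29.5 in Tfh Tomato+ and 103 and 70.6 in non-Tfh Tomato+. It differed by -3.76 ± 0.51 (SE; adjusted p = 0.0121). In all 3, as in 79 of all 86 genes called in this direction, the Tfh Tomato+ libraries lay between the ends without overlap. Their mean positions were 0.392, 0.320 and 0.350.

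The list of non-Tfh effector and migration genes held the most calls: 13 of 23 tested members were higher in non-Tfh Tomato+ cells and none in Tfh Tomato- cells, with a median of -2.29. They were Selplg, Lgals1, Crip1, Ahnak, Vim, Lgals3, Emp1, Itgb7, S100a4, S100a10, S100a6, S1pr1 and Anxa2. Selplg, the P-selectin ligand that Tfh cells are known to carry little of, measured 79.4 and 71.4 RPKM in Tfh Tomato-, 212 and 220.5 in Tfh Tomato+, 230.3 and 223 in non-Tfh Tomato- and 492 and 487 in non-Tfh Tomato+. The 2 libraries of each group lay close together, and Tfh Tomato+ and non-Tfh Tomato- cells shared a middle level between ends that differed 6.85-fold. The end groups differed by -2.78 ± 0.16 (SE; adjusted p = 0.000701). Crip1, a LIM domain protein, measured 210.4 and 239 RPKM in Tfh Tomato-, 1118 and 836 in Tfh Tomato+ and 1947 and 1606 in non-Tfh Tomato+. This was a log2 difference of -3.06 ± 0.22 (SE; adjusted p = 0.000908). Lgals1, the gene of galectin 1, measured 317 and 268 RPKM in Tfh Tomato-, 924 and 876 in Tfh Tomato+ and 1569 and 1696 in non-Tfh Tomato+. Between the ends it differed by -2.56 ± 0.18 (SE; adjusted p = 0.000908). In both, the Tfh Tomato+ libraries lay between the ends.

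Emp1, a membrane protein of epithelia and activated cells, measured 0.0629 and 0.0716 RPKM in Tfh Tomato-, 7.38 and 16.1 in Tfh Tomato+, 9.89 and 8.29 in non-Tfh Tomato- and 26.2 and 25.1 in non-Tfh Tomato+. That gave a difference of -8.62 ± 0.79 (SE; adjusted p = 0.00195). The Tfh Tomato- group alone was near 0 for Emp1, and a fold change against so few reads depends on the prior count. Itgb7, the integrin chain for homing to the gut, measured 157 and 175 RPKM in Tfh Tomato-, 229 and 211 in Tfh Tomato+, 374 and 299 in non-Tfh Tomato- and 599 and 533 in non-Tfh Tomato+. The log2 difference was -1.84 ± 0.17 (SE; adjusted p = 0.00195). In Itgb7, unlike Crip1 and Lgals1, Tfh Tomato+ cells lay near Tfh Tomato-, at positions 0.748 and 0.828. S1pr1, the receptor for leaving the lymph node, measured 41.2 and 37.6 RPKM in Tfh Tomato-, 69.1 and 65.5 in Tfh Tomato+, 239 and 247 in non-Tfh Tomato- and 150.2 and 121 in non-Tfh Tomato+, so that it was highest in non-Tfh Tomato- cells, outside the 2 ends. The ends lay apart by -1.86 ± 0.18 (SE; adjusted p = 0.0025). The S100 genes of the list, which encode calcium-binding proteins of motile cells, differed by -2.56 ± 0.23 for S100a4, -2.29 ± 0.22 for S100a10 and -2.25 ± 0.26 for S100a6 (adjusted p = 0.00195, 0.00216 and 0.00538, edgeR).

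Further large differences toward non-Tfh Tomato+ cells were those of Cish, an inhibitor of cytokine and T cell receptor signals, Ifitm1, an interferon-induced membrane protein, and Zbtb42, a zinc finger gene. Cish measured 7.003 and 5.01 RPKM in Tfh Tomato-, 50.2 and 66.7 in Tfh Tomato+, 55.3 and 37.4 in non-Tfh Tomato- and 199.9 and 190.4 in non-Tfh Tomato+ (log2 difference -5.097 ± 0.34, SE; adjusted p = 0.000908), with Tfh Tomato+ and non-Tfh Tomato- cells both in the middle. Ifitm1 measured 6.43 and 14.2 RPKM in Tfh Tomato-, 196 and 115 in Tfh Tomato+, 20.6 and 11.4 in non-Tfh Tomato- and 236 and 269 in non-Tfh Tomato+ (log2 difference -4.695 ± 0.56, SE; adjusted p = 0.00665), with both Tomato+ groups high. Zbtb42 had 1 and 0 reads in the Tfh Tomato- libraries and 7.43 and 5.61 RPKM in Tfh Tomato+ and 8.53 and 10 in non-Tfh Tomato+, so no fold is given, and its call was lost without any 1 of the 4 end libraries (adjusted p from 0.0549 to 0.0737). Furin, a protease that matures cytokines and is induced by interleukin 12, measured 32.6 and 26.2 RPKM in Tfh Tomato-, 139.5 and 120.2 in Tfh Tomato+ and 278 and 279 in non-Tfh Tomato+. Its log2 difference was -3.32 ± 0.29 (SE; adjusted p = 0.00195). Ltb4r1, a receptor for the chemoattractant leukotriene B4, measured 4.72 and 7.67 RPKM in Tfh Tomato-, 38.6 and 31.2 in Tfh Tomato+, 7.36 and 11.5 in non-Tfh Tomato- and 97.1 and 74.96 in non-Tfh Tomato+. It differed by -3.87 ± 0.50 (SE; adjusted p = 0.0098). Both Tomato+ groups were above both Tomato- groups. Gna15, a G protein alpha subunit of blood cells, measured 10.3 and 1.83 RPKM in Tfh Tomato-, 45.8 and 37.5 in Tfh Tomato+, 70.3 and 50.7 in non-Tfh Tomato- and 99.4 and 95.6 in non-Tfh Tomato+. The end groups differed by -4.07 ± 0.72 (SE; adjusted p = 0.0432). Here Tfh Tomato- cells alone were low. Hist1h1c, a linker histone gene, measured 3.51 and 1.77 RPKM in Tfh Tomato-, 11.9 and 8.55 in Tfh Tomato+, 29.4 and 24.2 in non-Tfh Tomato- and 57.4 and 46.5 in non-Tfh Tomato+. This was a log2 difference of -4.37 ± 0.60 (SE; adjusted p = 0.0134). Both non-Tfh groups of Hist1h1c were above both Tfh groups. The calls of Ltb4r1, Gna15 and Hist1h1c were lost without non-Tfh Tomato+ replicate 1, those of Gna15 and Hist1h1c also without replicate 2 of that group, that of Ltb4r1 without Tfh Tomato- replicate 1 and that of Hist1h1c without Tfh Tomato- replicate 2. Their adjusted p over all alternatives reached 0.0894 for Ltb4r1, 0.14 for Gna15 and 0.0894 for Hist1h1c.

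Receptors shared with NK cells were among them. Klrc1, the NKG2A receptor, measured 6.47 and 5.99 RPKM in Tfh Tomato-, 47.9 and 66.6 in Tfh Tomato+, 5.94 and 11.6 in non-Tfh Tomato- and 122 and 100.5 in non-Tfh Tomato+. Between the ends it differed by -4.23 ± 0.61 (SE; adjusted p = 0.016). Klrk1, the NKG2D receptor, measured 2.498 and 5.17 RPKM in Tfh Tomato-, 28.8 and 17.98 in Tfh Tomato+, 2.67 and 3.76 in non-Tfh Tomato- and 37.8 and 35.2 in non-Tfh Tomato+. That gave a difference of -3.33 ± 0.52 (SE; adjusted p = 0.0223). In both, each Tomato+ library was above each Tomato- library. Klrb1b, an inhibitory lectin-like receptor, measured 0.0929 and 0.299 RPKM in Tfh Tomato-, 18.8 and 24.8 in Tfh Tomato+, 1.08 and 0.214 in non-Tfh Tomato- and 47.05 and 30.5 in non-Tfh Tomato+. The log2 difference was -7.696 ± 1.06 (SE; adjusted p = 0.0133). All 3 were high in both Tomato+ groups and low in both Tomato- groups, but each call was lost without at least 2 of the end libraries, Klrb1b without Tfh Tomato- replicate 1 or non-Tfh Tomato+ replicate 1 (adjusted p = 0.0613 and 0.0607), Klrk1 without either of these or non-Tfh Tomato+ replicate 2 (up to 0.113), and Klrc1 without any 1 of the 4 (up to 0.127). Klrc1 and Klrk1 were the only calls among 11 tested markers of NK cells and innate-like T cells. The summed list of 12 measured 173 and 161 RPKM in Tfh Tomato-, 187 and 175 in Tfh Tomato+, 286 and 265 in non-Tfh Tomato- and 278 and 274 in non-Tfh Tomato+ cells. Most of it in the Tomato- groups was Fcer1g and Tyrobp, adaptor chains that myeloid cells also express. Without these, a choice made after their values were seen, the other 10 genes summed to 25.8 and 20.3 RPKM in Tfh Tomato-, 130.5 and 123 in Tfh Tomato+, 23.5 and 19.8 in non-Tfh Tomato- and 243 and 245 in non-Tfh Tomato+ cells. Zbtb16, the factor of innate-like T cells, was at 1.08 RPKM or less in every library, and Ncr1, an NK cell receptor, at 7.03 and 4.45 RPKM in Tfh Tomato+ and 2.06 and 0.943 in non-Tfh Tomato+ cells. The part of such cells in these results was not tested.

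Several of the largest differences toward Tfh Tomato- cells were genes of myeloid cells. Il1b, the cytokine interleukin 1 beta, measured 27.7 and 82.8 RPKM in Tfh Tomato-, 0.305 and 0.645 in Tfh Tomato+, 52.3 and 88.8 in non-Tfh Tomato- and 0.227 and 0.337 in non-Tfh Tomato+. The ends lay apart by 7.504 ± 0.87 (SE; adjusted p = 0.00563). Lyz2, lysozyme of macrophages, measured 666 and 827 RPKM in Tfh Tomato-, 244 and 199 in Tfh Tomato+, 948 and 898 in non-Tfh Tomato- and 105 and 63.9 in non-Tfh Tomato+. Its log2 difference was 3.07 ± 0.27 (SE; adjusted p = 0.00194). H2-Ab1, an MHC class II chain of antigen-presenting cells, measured 961 and 577 RPKM in Tfh Tomato-, 268 and 248 in Tfh Tomato+, 1288 and 1084 in non-Tfh Tomato- and 263 and 187 in non-Tfh Tomato+. It differed by 1.699 ± 0.27 (SE; adjusted p = 0.0241). These genes were higher in both Tomato- groups than in either Tomato+ group. Emilin2, an extracellular matrix protein, measured 6.17 and 8.79 RPKM in Tfh Tomato-, 0.0377 and 0.0766 in Tfh Tomato+, 7.53 and 11.4 in non-Tfh Tomato- and 0.04396 and 0.0191 in non-Tfh Tomato+. Alox5ap, which is needed for leukotriene synthesis, measured 19.7 and 33.6 RPKM in Tfh Tomato-, 8.72 and 3.96 in Tfh Tomato+, 18.3 and 59.1 in non-Tfh Tomato- and 0.252 and 0.175 in non-Tfh Tomato+. Both were higher in the 2 Tomato- groups than in either Tomato+ group. Cebpd, a factor of myeloid differentiation, measured 16.9 and 33.1 RPKM in Tfh Tomato-, 11.7 and 6.82 in Tfh Tomato+, 13.6 and 11.6 in non-Tfh Tomato- and 0.304 and 0.924 in non-Tfh Tomato+. Ctsl, a lysosomal protease, measured 35.98 and 30.1 RPKM in Tfh Tomato-, 24.1 and 20.1 in Tfh Tomato+, 3.68 and 19.8 in non-Tfh Tomato- and 0.196 and 0.662 in non-Tfh Tomato+. Cebpd and Ctsl were lowest in non-Tfh Tomato+ cells alone. Unlike Il1b and Lyz2, Ctsl was higher in every Tfh library than in both non-Tfh Tomato- libraries. In the order Emilin2, Alox5ap, Cebpd and Ctsl, their log2 differences were 7.78 ± 1.14, 6.86 ± 1.25, 5.25 ± 0.89 and 6.16 ± 1.07 (SE; adjusted p = 0.0169, 0.0474, 0.035 and 0.0382). The calls of Alox5ap, Cebpd and Ctsl were lost without any 1 of the 4 end libraries, that of Ctsl also without Tfh Tomato+ replicate 2, that of Alox5ap also without either Tfh Tomato+ library or non-Tfh Tomato- replicate 2, and that of Emilin2 without Tfh Tomato- replicate 2 or either non-Tfh Tomato+ library. Their adjusted p over all alternatives reached 0.155 for Emilin2, 0.252 for Alox5ap, 0.187 for Cebpd and 0.171 for Ctsl. Pla2g7, a lipase of macrophages, had 1 and 0 reads in non-Tfh Tomato+ cells and 5.08 and 8.74 RPKM in Tfh Tomato- and 17.5 and 28.1 in non-Tfh Tomato-, so no fold is given. Plbd1, a phospholipase of myeloid granules, measured 17.4 and 20.02 RPKM in Tfh Tomato-, 10.9 and 2.62 in Tfh Tomato+ and 0.152 and 0.227 in non-Tfh Tomato+. The end groups differed by 6.52 ± 0.99 (SE; adjusted p = 0.0208). The calls of Plbd1 and H2-Ab1 were lost without either non-Tfh Tomato+ library (adjusted p up to 0.138 and 0.134), that of H2-Ab1 also without Tfh Tomato- replicate 1 (0.0613), that of Pla2g7 without any 1 of the 4 end libraries (up to 0.203), or either non-Tfh Tomato- library, and that of Il1b without both Tomato- replicate 2 libraries together (0.0785).

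Of 18 tested macrophage and monocyte markers 17 had a positive difference and 3 passed, Lyz2, Il1b and Plbd1, at a median of 2.67. Over all genes tested 50.8% had a positive difference. Of 9 tested dendritic cell markers 8 did, at a median of 0.79, and none passed. The summed list of 18 measured 1231 and 1511 RPKM in Tfh Tomato-, 651 and 483 in Tfh Tomato+, 1720 and 1856 in non-Tfh Tomato- and 302 and 242.5 in non-Tfh Tomato+ cells. Csf1r, the defining receptor of macrophages, measured 8.10 and 35.4 RPKM in Tfh Tomato- and 6.39 and 0.231 in non-Tfh Tomato+ cells, and Mrc1 had no reads in all 4 end libraries and both Tfh Tomato+ libraries. The 7 MHC class II genes summed to 2773 and 2065 RPKM in Tfh Tomato- and 956 and 740 in non-Tfh Tomato+ cells, and all 7 had a positive difference. Neutrophil markers marked single libraries: the 12 genes summed to 10.2 and 453.5 RPKM in Tfh Tomato-, 6.40 and 366 in non-Tfh Tomato- and 101 and 10.7 in non-Tfh Tomato+ cells, with Mpo and Elane at 0 reads in all 8 libraries. B cell markers, 13 genes, summed to between 121 and 166 RPKM in every library. Plasma cell markers summed to 146 and 148 RPKM in Tfh Tomato- and 256.5 and 411 in non-Tfh Tomato+ cells. The part of such cells in the difference was not tested. Without the members of the marker lists of other cell types, 45 genes higher in Tfh Tomato- cells and 84 higher in non-Tfh Tomato+ cells remained of the 135.

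**Figure D3:**
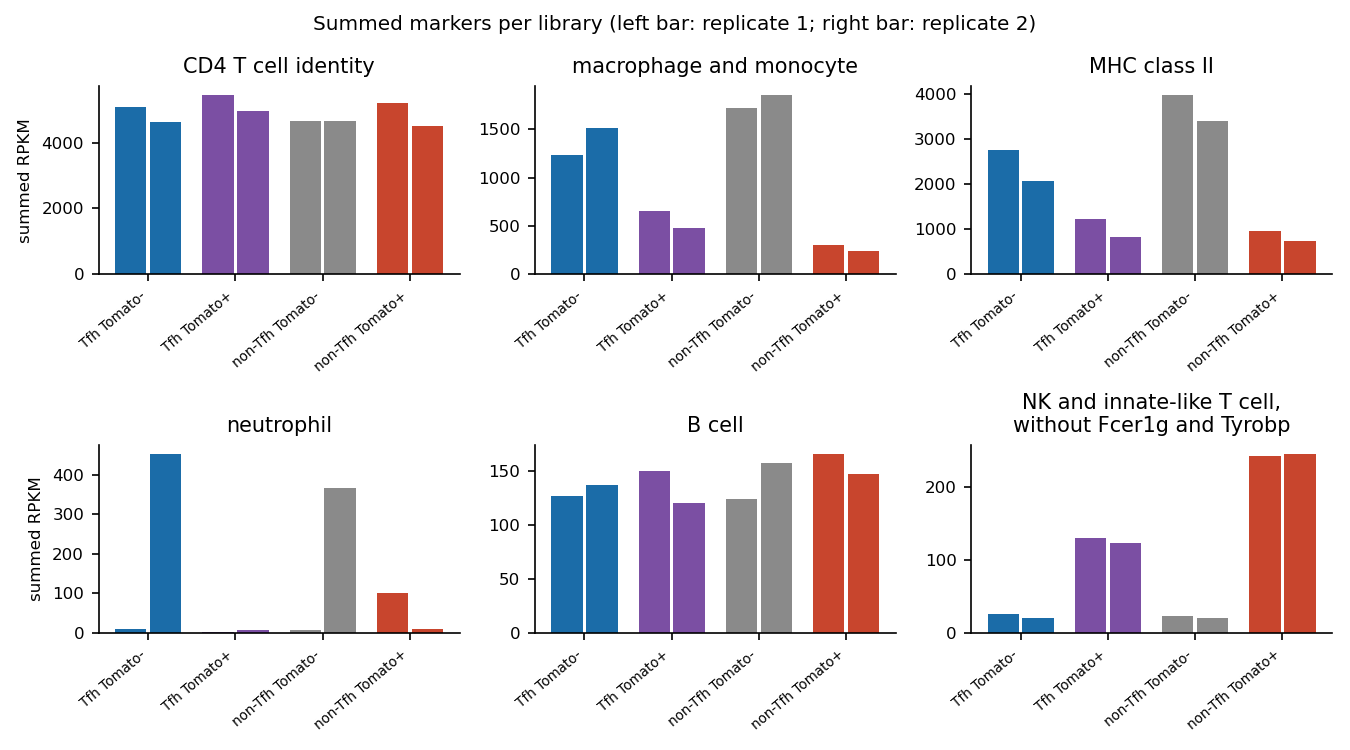
Summed RPKM of 6 marker lists (vertical axes, from 0) in each of the 8 libraries, with replicate 1 as the left and replicate 2 as the right bar of a group. CD4 T cell markers are level across the groups, and macrophage and MHC class II markers are higher in both Tomato- groups. Neutrophil markers stand out in replicate 2 of both Tomato- groups. The 10 NK markers are higher in both Tomato+ groups, but they leave out Fcer1g and Tyrobp, a choice made after their values were seen. With both genes included the sum is not higher in both Tomato+ groups: 187 and 175 RPKM in Tfh Tomato+ against 286 and 265 in non-Tfh Tomato-.

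Other programs held few calls. None of 30 cell cycle genes passed (median -0.36), with Mki67 at 2.22 and 6.56 RPKM in Tfh Tomato- and 5.15 and 4.603 in non-Tfh Tomato+, nor did any of 20 type I interferon response genes (0.92), 14 glycolysis genes (0.15), 4 Th2 genes (-0.62), 8 Th17 genes (-0.25) or 12 Treg genes (-3.97). Foxp3, the Treg lineage factor, measured 1.53 and 1.88 RPKM in Tfh Tomato-, 7.18 and 1.35 in Tfh Tomato+, 15.7 and 10.01 in non-Tfh Tomato- and 22.3 and 23.1 in non-Tfh Tomato+ and missed the threshold (log2 difference -3.81 ± 0.81, SE; adjusted p = 0.0807), as did Il2ra, a chain of the interleukin 2 receptor (log2 difference -6.52 ± 1.21, SE; adjusted p = 0.0504). Of 19 interferon gamma response genes Igtp, a GTPase, was higher in non-Tfh Tomato+ cells, with 41.1 and 32.3 RPKM in Tfh Tomato-, 92.1 and 92.9 in Tfh Tomato+ and 123 and 108 in non-Tfh Tomato+. This was a log2 difference of -1.73 ± 0.23 (SE; adjusted p = 0.0107). That call was lost without Tfh Tomato- replicate 2 (adjusted p = 0.067) or non-Tfh Tomato+ replicate 1 (0.079). Of 12 naive and central memory genes, Tcf7 was higher in Tfh Tomato- cells and Il7r and Ms4a4b in non-Tfh Tomato+ cells. Il7r, the interleukin 7 receptor of long-lived cells, measured 12.4 and 28.1 RPKM in Tfh Tomato-, 20.3 and 38.6 in Tfh Tomato+, 98.8 and 117 in non-Tfh Tomato- and 111 and 112 in non-Tfh Tomato+ (log2 difference -2.54 ± 0.43, SE; adjusted p = 0.035), with Tfh Tomato+ cells near Tfh Tomato-. The Il7r call was lost without Tfh Tomato- replicate 1 (adjusted p = 0.0923) or either non-Tfh Tomato+ library (up to 0.0968). Among 10 inhibitory receptors Pdcd1 alone passed, and it encodes a gating protein. Btla, at 42.4 and 54.1 RPKM in Tfh Tomato-, 20.6 and 33.8 in Tfh Tomato+ and 10.7 and 14.5 in non-Tfh Tomato+, missed the threshold. Between the ends it differed by 1.85 ± 0.35 (SE; adjusted p = 0.0539).

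Each called gene gives every library a position between the end groups, on log2 CPM (counts scaled to library size), where 0 is the mean of non-Tfh Tomato+ and 1 the mean of Tfh Tomato-. The ends sit at 0 and 1 by construction. The Tfh Tomato+ values do not set these 2 points, but the fit that called the genes included those libraries: 116 of the 135 genes were called without Tfh Tomato+ replicate 1 and 115 without replicate 2. Over the 49 genes higher in Tfh Tomato- cells, the median position of Tfh Tomato+ was 0.874 in replicate 1 and 0.762 in replicate 2, close to the classical Tfh end. Over the 86 genes higher in non-Tfh Tomato+ cells it was 0.422 and 0.433, slightly past the middle toward the Th1-like end. The non-Tfh Tomato- libraries had medians of 0.567 and 0.600 over the 49 genes and 0.463 and 0.470 over the 86. On these genes they lay below Tfh Tomato+ for the Tfh end, and close to it for the other end. Without the 4 of the 49 and 2 of the 86 genes that are on the marker lists of other cell types, the mean position of the 2 Tfh Tomato+ libraries was 0.833 and 0.432, against 0.818 and 0.427 with them. Pla2g7, Emilin2, Alox5ap and Cebpd are on no such list and were kept.

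**Figure D4:**
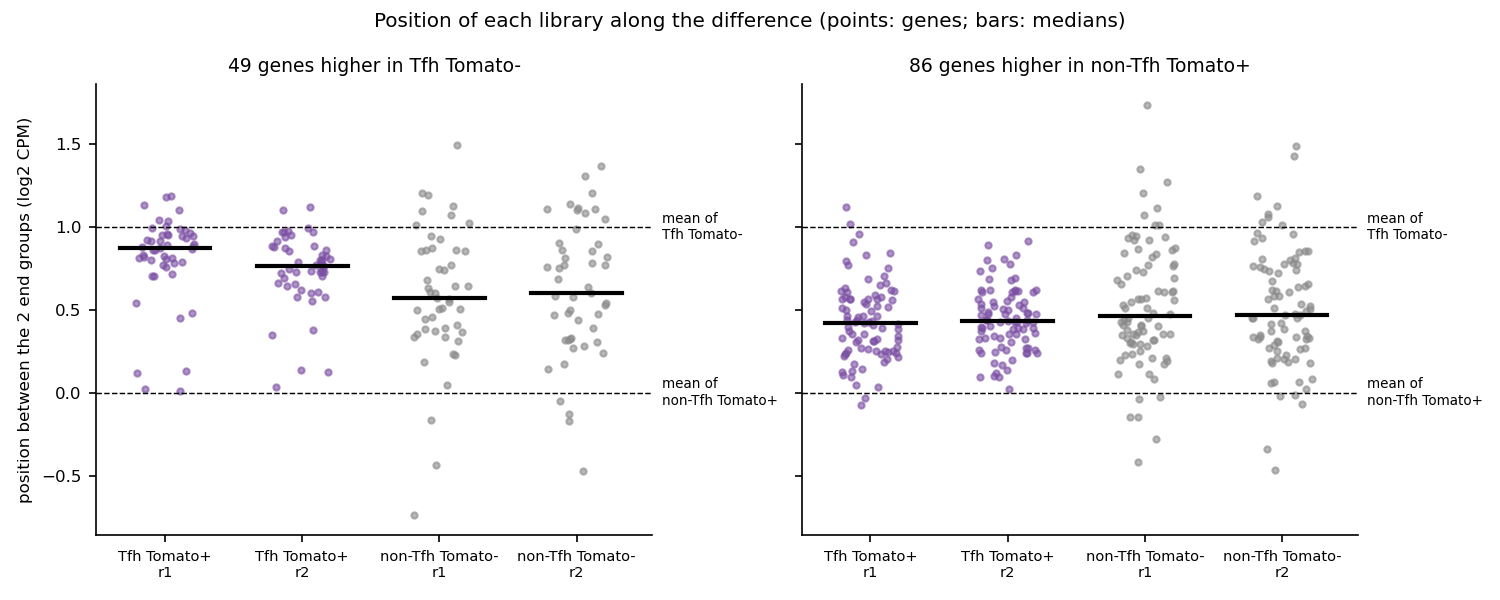
Position of Tfh Tomato+ (purple) and non-Tfh Tomato- (grey) libraries between the end groups (vertical axis; 0 is the mean of non-Tfh Tomato+, 1 the mean of Tfh Tomato-), for the 49 genes higher in Tfh Tomato- cells (left) and the 86 higher in non-Tfh Tomato+ cells (right). Points are genes and bars medians; the purple medians are 0.874 and 0.762 on the left and 0.422 and 0.433 on the right.

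Both Tfh Tomato+ libraries lay strictly between the ends in 106 of the 135 genes (78.5%), 27 of the 49 (55.1%) and 79 of the 86 (91.9%), against 645 of all genes tested (5.49%). Part of that gap is fixed by the choice, since called genes have ends that lie far apart. In 17 of the 49 genes Tfh Tomato+ overlapped Tfh Tomato-, and in 4 of the 86, against 7643 of the 11746 genes tested. That gap too is partly fixed by the choice. By the mean position, 44 of the 49 genes were nearer to Tfh Tomato- and 54 of the 86 nearer to non-Tfh Tomato+. Over all genes tested, 6107 were nearer to Tfh Tomato- and 5639 nearer to non-Tfh Tomato+. The test of Tfh Tomato+ against the midpoint of the ends called no gene with edgeR (0%; 672 genes, 5.72%, at an unadjusted p below 0.05) and none with limma at either pseudocount, while DESeq2 called 145. For a single gene, therefore, which end was nearer was not resolved by edgeR. Of the 135 genes, 64 had an unadjusted p below 0.05 against the midpoint, 38 of the 49 and 26 of the 86. Of the 38, 35 were nearer to Tfh Tomato-, and of the 26, 22 were nearer to non-Tfh Tomato+. The 135 genes were called in the same fit from the same end libraries, so these counts are not independent of that choice.

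The whole difference splits into a step between the 2 Tfh groups and a step between the 2 Tomato+ groups, which share the Tfh Tomato+ libraries with each other and the end libraries with the whole. Over the 49 genes the median step from Tfh Tomato+ to Tfh Tomato- was 0.42 and that from non-Tfh Tomato+ to Tfh Tomato+ was 2.08. Over the 86 genes the medians were -1.3 and -0.98, the larger one between the 2 Tfh groups. Between Tfh Tomato- and Tfh Tomato+ cells 13 genes passed (0.111%). Higher in Tfh Tomato+ cells were Ahnak, Cish, Crip1, Emp1, Furin, Ifngr1, Il18rap, Lgals1, Lgals3, Nkg7, Selplg and Tbx21, 12 genes (0.102%), and lower was Il1b, 1 gene (0.00851%). Nkg7, for example, had a log2 step of -3.45 (adjusted p = 0.0127, edgeR) here and -0.88 (0.44) between Tfh Tomato+ and non-Tfh Tomato+. Between the 2 Tomato+ groups 9 genes passed (0.0766%). Higher in Tfh Tomato+ cells were Ascl2, Fam43a, Fos, Rgs10, Smtn, Sostdc1 and Tox, 7 genes (0.0596%), and lower were Itgb7 and Selplg, 2 genes (0.017%). Ascl2 had a step of 7.29 (adjusted p = 0.0369) here and 0.49 (adjusted p = 1) between the Tfh groups. Selplg had steps of -1.505 (0.0127) between the Tfh groups and -1.27 (0.0394) between the Tomato+ groups.

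**Figure D5:**
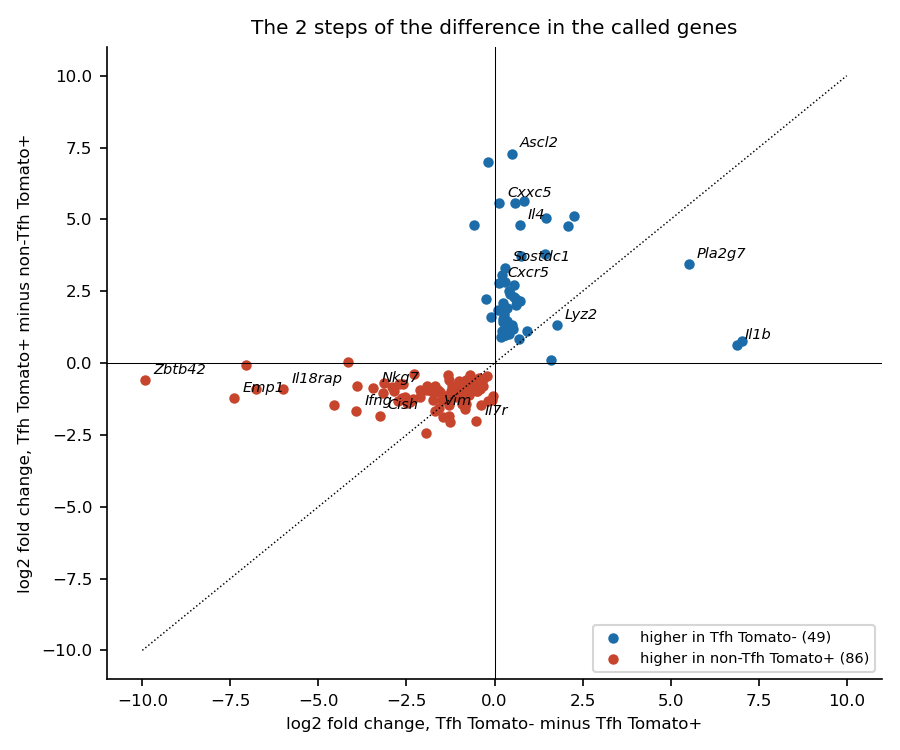
The 2 steps of the difference in the 135 called genes: log2 fold change between Tfh Tomato- and Tfh Tomato+ (horizontal axis) and between Tfh Tomato+ and non-Tfh Tomato+ (vertical axis); the dotted line marks equal steps. Most of the 49 blue genes lie near the vertical axis, Il1b, Pla2g7, Lyz2 and a few others lie to the right, and the 86 red genes spread along both steps.

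These counts of steps are less stable than the count between the ends. The 13 became 6 without Tfh Tomato- replicate 1, 2 without Tfh Tomato- replicate 2, 3 without Tfh Tomato+ replicate 1 and 8 without Tfh Tomato+ replicate 2. The 9 became 0 without Tfh Tomato+ replicate 1, 1 without Tfh Tomato+ replicate 2 and 0 without either non-Tfh Tomato+ library, with 571 to 990 genes at an unadjusted p below 0.05 in those fits.

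An axis drawn from replicate 1 of each end alone, over genes at least 4-fold apart, shows where a held-out library of the end itself falls. Over 558 genes higher in Tfh Tomato- replicate 1, the held-out Tfh Tomato- replicate 2 had a median position of 0.812 and the held-out non-Tfh Tomato+ replicate 2 of 0.458. The Tfh Tomato+ libraries, at 0.769 and 0.744, lay nearer to the first, and the non-Tfh Tomato- libraries were at 0.648 and 0.555. Over 532 genes higher in non-Tfh Tomato+ replicate 1, the held-out ends were at 0.636 and 0.146, with Tfh Tomato+ at 0.382 and 0.364 and non-Tfh Tomato- at 0.44 and 0.549. With replicate 2 as the axis, the held-out ends were at 0.775 and 0.468 over 572 genes, Tfh Tomato+ at 0.625 and 0.693 and non-Tfh Tomato- at 0.661 and 0.538. On that axis Tfh Tomato+ replicate 1 lay about midway between the held-out ends, and non-Tfh Tomato- replicate 1 lay above it. The order of these 2 groups was therefore not the same on both axes. Over the 521 genes of the other direction the held-out ends were at 0.578 and 0.132, with Tfh Tomato+ at 0.348 and 0.307 and non-Tfh Tomato- at 0.379 and 0.471. In this direction Tfh Tomato+ replicate 1 lay about midway between the held-out ends on both axes. In all 4 cases the libraries of Tfh Tomato+ and of non-Tfh Tomato- alike fell between the held-out ends.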

How the data were processed

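RNA of sorted CD4 T cells was sequenced after polyA selection, per the labels' protocols. The deposited tables give read counts and RPKM for 29257 transcript rows in each library; the authors' RPKM scale counts by transcript length and library. The submitters' processing notes name CASAVA 2.18, Bowtie2, SICER 1.1, edgeR and the build mm9, without roles; counting and strand are not given in the sources used here. Paralogs, overlapping and antisense genes may share reads.

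Per symbol, the row with the most reads over the 8 lymph node libraries was kept (22878 symbols, 4019 with more than 1 row). Depth was 13169625 to 20225695 reads over genes, and the counts were tested as deposited. edgeR 4.0.16 (R 4.3.3; TMM, filterByExpr, quasi-likelihood F test) was fitted to the 8 libraries with 1 mean per group and 4 residual degrees of freedom, and p-values were adjusted over all genes tested. The SE is the log2 difference divided by the square root of F. For genes near 0 reads the fitted fold depends on the prior count. Positions used log2 CPM computed from the counts with TMM and a prior count of 2. Counts were also simulated with the dispersions that edgeR estimated from these data, and no gene of the lowest levels was changed. That setting can favour edgeR, so it does not rank the tools on the real data. On these counts edgeR recovered 22 of 100 genes changed by 2 on the log2 scale and 65 of 100 changed by 4, with 1 false call among 11338 unchanged genes. DESeq2 recovered 45 and 83 with 89 false calls, and limma 11 and 45 with 3 among 10697.

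Alternatives were DESeq2 1.42.0, limma 3.58.1 on log2(RPKM + 1) or (RPKM + 0.1) on genes reaching 1 RPKM in 2 or more libraries, fewer libraries, other factors and filters, and a replicate block. The members, gene lists and tests were chosen with earlier results of these data known. Genes named by rule were Tbx21, Ifng, Bcl6, Cxcr5 and Pdcd1, the 12 largest differences in each direction of at least 5 RPKM, and from each list the 3 lowest adjusted p at most; other genes, including called list members, were named after their values were seen, and not every gene under the rule is described. Spleen and DNase files were not used here.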

Additional observations from a re-analysis of the deposited data

How the results depend on the processing

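The 135 calls between the ends were 847 with DESeq2, 217 with limma on log2(RPKM + 1), 203 with a filter of 5 RPKM, 67 with the 4 end libraries alone, 81 without the replicate 2 libraries of both Tomato- groups and 67 to 159 without 1 library. Of the 135 genes, 52 passed in all 4 fits without 1 end library, 36 in none of them and 46 in every alternative, and none reversed. The 13 calls between the Tfh groups were 262 with DESeq2, 29 and 21 with limma at a pseudocount of 1 and 0.1, 26 with no filter, 0 without the 2 replicate 2 libraries (758 at an unadjusted p below 0.05) and 2 to 18 without 1 library. The 9 calls between the Tomato+ groups were 414 with DESeq2, 29 and 23 with limma, 50 with no filter, 40 with a filter of 5 RPKM, 0 with the 6 libraries of 3 groups alone (1070 at an unadjusted p below 0.05), 0 without the 2 replicate 2 libraries (1082) and 0 to 12 without 1 library. The midpoint test called 145 genes with DESeq2 and 0 without any 1 library. Apart from fewer genes or libraries where these are named, the cause was not tested.

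The mean of the 2 medians of Tfh Tomato+ was 0.785 to 0.843 without 1 end library for the 49 genes, and for the 86 genes 0.374 to 0.432, 0.414 with genes called by limma and 0.415 on log2(RPKM + 1). On the axis of 1 replicate, 0.757 and 0.373 became 0.659 and 0.327 with replicate 2 and 0.668 and 0.451 with a 2-fold minimum. Among named genes, the log2 difference changed sign without 1 library for E2f1 (-9.63 to 2.26, positive without non-Tfh Tomato+ replicate 1), Cd8b1 (-0.57 to 0.83, negative without Tfh Tomato- replicate 1) and Hba-a1 and Hba-a2 (-2.31 to 9.07 each, negative without Tfh Tomato- replicate 2), none of which passed.

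The labels link same-numbered replicates by the number alone. Correlations of their deviations over all genes tested were -0.013 to 0.028 between groups. Neutrophil markers did follow the number in the Tomato- groups. They summed to 10.2 and 453.5 RPKM in replicates 1 and 2 of Tfh Tomato- and 6.40 and 366 in those of non-Tfh Tomato-. Whether same-numbered libraries share a source was not tested. With the replicate block, 131 genes passed between the ends, 117 of them among the 135, 12 between the Tfh groups, 1 between the Tomato+ groups and 0 against the midpoint. The 2 libraries a group limit every test, and a gene that did not pass may still differ.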
